A study of Rattus norvegicus with 16 samples.

Results

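Il6, Tnf and Il10 encode 3 cytokines that macrophages release when they meet bacterial products, Stat3 encodes a transcription factor, and Socs1 and Socs3 encode inhibitors that switch cytokine signalling off again. They were chosen as 6 genes by identifier, and 5 of them were found among the 30560 genes listed. The 5 are Il6 (ENSRNOG00000010278), Tnf (ENSRNOG00000070745), Il10 (ENSRNOG00000004647), Stat3 (ENSRNOG00000019742) and Socs1 (ENSRNOG00000002568). Socs3 (ENSRNOG00000002946) was not analysed here. The symbols come with the choice of the identifiers and were not checked against an annotation, since the gene table used here holds no Ensembl identifier. All 5 genes had enough counts to be tested, so no member was lost to the filter on low counts, although Il10 passed it only through the libraries with LPS.

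RNA was sequenced in bulk from primary microglia, the resident macrophages of the brain, taken from wild type rats and kept 12 days in culture. There were 16 libraries in 4 groups of 4. Control cells received neither agent. A second group received ApoA-I (apolipoprotein A-I, which carries cholesterol in high-density lipoprotein) at 100 ug/ml. The LPS group was exposed for 20 hours to lipopolysaccharide, a cell wall component of Gram-negative bacteria, at 100 ng/ml. The LPS+ApoA-I group received LPS for 20 hours together with ApoA-I at the same doses. The time of exposure to ApoA-I is not stated. Depth lay between 12304916 and 17262383 estimated counts per library. The labels do not name the culture or animal behind a replicate, so every p-value speaks only for the spread among these libraries, and part of it may be technical. In bulk RNA a different level per cell and a different number of producing cells cannot be told apart. Microglial markers and markers of other cell types were not examined, because no table used here gives names for the other identifiers.

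As background, LPS binds a Toll-like receptor complex on macrophages, and NF-kB then drives transcription of the genes for TNF and interleukin 6. Interleukin 10 is made in the same cells later and acts through its receptor and Stat3 to lower inflammatory cytokines, while interleukin 6 signals through gp130 to Stat3 as well. Socs1, induced by interferons and cytokines, blocks Janus kinases, and Socs3 blocks gp130 signalling.

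The DNA before the start of these genes is shown for Il6 and Tnf, cytokines that moved in opposite directions when ApoA-I was added to LPS. It is also shown for Socs1, the inhibitor that rose in that comparison. Il10, which fell as Il6 did, had no promoter entry. The stretches shown were picked by these responses, and a link between motifs and responses was not tested. Each is the 250 bases upstream of the start site in RefSeq (build GRCr8), 5′ to 3′ on the gene's own strand, and capitals mark motif matches. The Il6 stretch is chr4:5894576-5894825 on the minus strand, that of Tnf is chr20:3626435-3626684 on the plus strand, and that of Socs1 is chr10:5389324-5389573 on the plus strand.
Il6: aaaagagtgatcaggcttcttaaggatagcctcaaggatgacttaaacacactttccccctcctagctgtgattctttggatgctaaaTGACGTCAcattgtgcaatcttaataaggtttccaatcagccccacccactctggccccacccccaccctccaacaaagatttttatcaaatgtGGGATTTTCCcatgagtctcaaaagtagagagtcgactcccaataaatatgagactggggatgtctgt
Tnf: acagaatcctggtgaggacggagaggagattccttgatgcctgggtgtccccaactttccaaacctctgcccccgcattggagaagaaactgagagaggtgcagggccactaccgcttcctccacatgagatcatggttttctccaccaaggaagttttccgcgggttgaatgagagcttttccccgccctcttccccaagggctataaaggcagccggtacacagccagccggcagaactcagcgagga
Socs1: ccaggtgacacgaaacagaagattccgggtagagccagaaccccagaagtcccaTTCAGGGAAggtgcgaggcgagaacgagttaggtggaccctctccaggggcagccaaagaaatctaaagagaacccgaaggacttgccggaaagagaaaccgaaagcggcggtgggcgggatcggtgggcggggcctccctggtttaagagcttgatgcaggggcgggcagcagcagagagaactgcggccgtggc

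Both strands were searched for a STAT motif (TTCNNNGAA), an NF-kB motif (GGG, 2 free bases, TT, 1 free base, CC), an AP-1 motif (TGANTCA) and a cyclic AMP response element (TGACGTCA). The Il6 stretch held the response element at 162 to 155 bases and an NF-kB match, GGGATTTTCC, at 68 to 59 bases before the start. The Socs1 stretch held a STAT match, TTCAGGGAA, at 196 to 188 bases before the start. None of the 4 motifs was found in the Tnf stretch, which says only that these letters are not in that window. The same holds for the Stat3 window, but part of it lies inside the span of the gene that RefSeq annotates, so it is not simply upstream sequence. Among 33469 RefSeq promoters cut to the same length, 7.67% held the STAT motif, 4.36% the NF-kB motif, 6.34% the AP-1 motif and 1.59% the response element. No motif match overlapped another.

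LPS raised all 5 genes with TMM scaling, although Stat3, with the smallest change, was not called with library totals or TPM. When ApoA-I was added to LPS, Il6 and Il10 fell, Tnf and Socs1 rose further and Stat3 was not called. In LPS against Control, 5 of 5 were higher by edgeR's quasi-likelihood test at an adjusted p under 0.05. Of all 11902 tested genes, 36.3% were higher and 74.7% were called in either direction. Il10 is among the 5, although only the libraries with LPS took it past the filter. Its call is thus no separate support, here and in the other comparisons of LPS with no LPS. With LPS and ApoA-I against LPS alone, 4 of 5 were called, against 51.4% of all genes. Socs1 and Tnf were higher (26.4% of all genes were) and Il6 and Il10 were lower (24.9% of all genes were). The median log2 change of the 5 was 2.93 in LPS against Control, with -0.04 for all tested genes, and -0.02 in LPS+ApoA-I against LPS, with 0.03 for all tested genes. Both comparisons use the LPS libraries. These shares of all genes are high, so a call alone says little about these 5 genes, and the sizes and single libraries are given below. The share of all genes whose libraries separate between groups without overlap was not computed. A lack of overlap is therefore given only as a description.

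**Figure D1:**
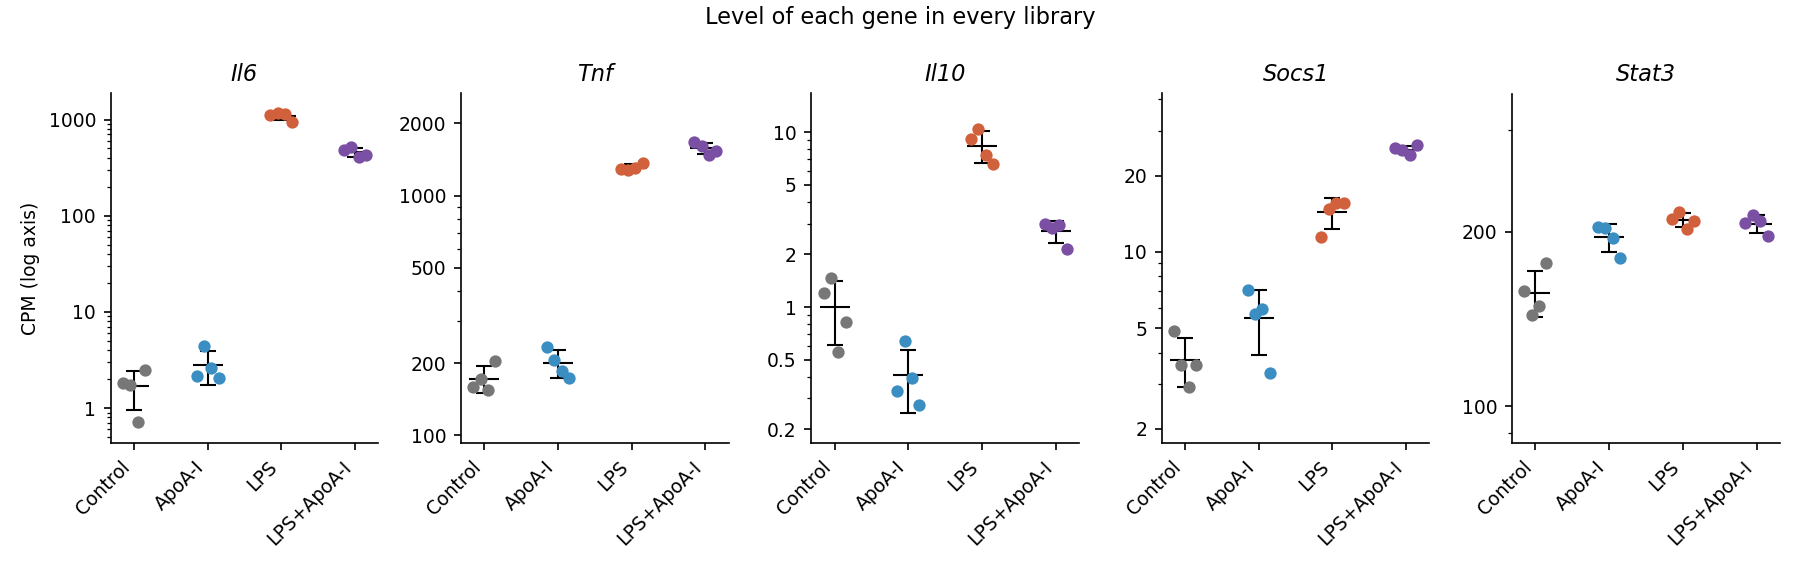
Level of Il6, Tnf, Il10, Socs1 and Stat3 in each of the 16 libraries, in CPM on a log axis, by group. Points are libraries, the horizontal mark is the group mean and the bars are 1 SD (n = 4). Il6 and Il10 were lower, and Tnf and Socs1 higher, in every LPS+ApoA-I library than in every LPS library. The share of all genes with such a separation was not computed.

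Il6 encodes interleukin 6, the cytokine of fever and the acute phase response. Its level in Control libraries 1 to 4 was 1.83, 1.72, 0.716 and 2.51 CPM (a gene's counts relative to the TMM-scaled total of its library), from 13 to 40 counts each. The 4 LPS libraries held 1113, 1165, 1141 and 943 CPM. No library with LPS came near those without it. The mean rose from 1.70 ± 0.740 to 1090 ± 101 CPM (SD, n = 4 each), a fitted fold of 651 (95% interval 504 to 841; log2 change 9.35, SE 0.18, edgeR adjusted p = 1.87e-21). Of the 11902 genes tested, 26 had a larger log2 change. By mean TPM (the deposited unit that is per length) Il6 went from rank 9794 of the listed genes in Control to rank 104 in LPS libraries.

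With ApoA-I in addition to LPS, Il6 stood at 484, 516, 411 and 432 CPM. All 4 values were below the lowest LPS library, at a mean of 461 ± 48.3 CPM (SD, n = 4). The log2 change against LPS alone was -1.24 (SE 0.11, edgeR adjusted p = 2.57e-09), which leaves 0.423 of the LPS level (95% interval 0.362 to 0.494). A log2 change further below 0 was found in 456 genes. Il6 was still 275-fold above Control (95% interval 214 to 354; log2 change 8.10, SE 0.18, edgeR adjusted p = 3.89e-20). ApoA-I without LPS gave 2.17, 4.39, 2.60 and 2.07 CPM, which overlaps the Control libraries. That difference of 0.74 log2 units (95% interval 0.15 to 1.33) did not pass the test (edgeR adjusted p = 0.146). The effect of ApoA-I thus differed with and without LPS by -1.98 log2 units (95% interval -2.62 to -1.35; interaction, edgeR adjusted p = 1.89e-05). LPS+ApoA-I against ApoA-I, which shares no library with LPS against Control, gave 7.36 log2 units (SE 0.17, edgeR adjusted p = 8.58e-20). There 10 tested genes had a larger log2 change than Il6, where 26 had one in LPS against Control. A smaller LPS response with ApoA-I was therefore not particular to Il6 among the genes that LPS raised most. On the CPM scale the rise with LPS was 1089 without and 458 with ApoA-I, or 42.1% as large.

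Tnf encodes tumour necrosis factor, the early cytokine that acts on neighbouring cells to activate NF-kB. Unlike Il6 it was abundant in resting cells, with 160, 172, 154 and 203 CPM in Control libraries. LPS libraries held 1293, 1279, 1303 and 1366 CPM. The groups were far apart, with means of 172 ± 22.0 and 1310 ± 38.4 CPM (SD, n = 4 each). The rise was 7.60-fold (95% interval 6.70 to 8.63; log2 change 2.93, SE 0.09, edgeR adjusted p = 3.47e-18), and 337 tested genes rose by more.

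With LPS and ApoA-I, Tnf reached 1667, 1606, 1478 and 1542 CPM, all above the highest LPS library. The further rise was small, 1.20-fold (95% interval 1.07 to 1.35; log2 change 0.26, SE 0.08, edgeR adjusted p = 0.0095), and the median of all genes in that comparison was 0.03 log2 units. It kept its direction and its call under all 24 alternative settings, with log2 changes from 0.24 to 0.41 and adjusted p from 5.31e-05 to 0.0336. Some of these settings left out a Control or ApoA-I library, which is not part of this comparison. Without LPS, ApoA-I libraries held 234, 206, 186 and 174 CPM, which overlaps Control. That difference was 0.22 log2 units (95% interval 0.04 to 0.39; edgeR adjusted p = 0.147). Without Control 4 it was 0.31 log2 units and passed (adjusted p = 0.0158, range 0.0158 to 0.486 over 24 alternatives). The interaction for Tnf was 0.05 log2 units (95% interval -0.19 to 0.29; edgeR adjusted p = 0.77), so an effect of ApoA-I that differs with LPS was not shown, and differences within that interval remain possible. In CPM the LPS rise was 1138 without and 1373 with ApoA-I, 121% as large. An equal fold effect of ApoA-I with and without LPS also changes this rise, so it does not show an interaction.

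Il10 encodes interleukin 10, the cytokine that dampens macrophage activation. It was the scarcest of the 5 genes, with 19, 22, 10 and 13 counts in Control libraries, or 1.20, 1.46, 0.551 and 0.816 CPM. LPS libraries held 9.14, 10.4, 7.46 and 6.57 CPM, from 79 to 110 counts. Each was above every Control library. The mean rose from 1.01 ± 0.403 to 8.40 ± 1.72 CPM (SD, n = 4 each), by 8.36-fold (95% interval 5.70 to 12.3; log2 change 3.06, SE 0.27, edgeR adjusted p = 6.31e-10). This fold was near that of Tnf, with a wider interval from fewer counts. Only the libraries with LPS took Il10 past the count filter, so its place among the tested genes already depends on this rise.

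ApoA-I lowered Il10 in LPS-treated cells to 2.98, 2.85, 2.93 and 2.14 CPM, all below the lowest LPS library and above the highest Control library. The level was 0.325 of that with LPS alone (95% interval 0.231 to 0.459; log2 change -1.62, SE 0.24, edgeR adjusted p = 6.57e-06). Against Control it was 2.72-fold higher (95% interval 1.81 to 4.10; log2 change 1.44, SE 0.28, edgeR adjusted p = 0.000108). Without LPS, ApoA-I libraries held 0.329, 0.638, 0.391 and 0.276 CPM, from 4 to 9 counts each. The highest of these lay above the lowest Control library, so the groups overlapped. The log2 difference was -1.27 (95% interval -2.05 to -0.49; edgeR adjusted p = 0.0575) and was not called. With so few counts this comparison gives weak evidence in either direction: Il10 fell under the filter when only its 8 libraries were fitted, and DESeq2 gave no adjusted p. Of the 22 alternatives with an adjusted p (0.0384 to 0.175), 5 called it. These were leaving out Control 3 (adjusted p = 0.0424), Control 4 (0.0457) or ApoA-I 2 (0.0384), the replicate block (0.0418) and limma on log2(TPM + 0.1) (0.046). The interaction was -0.35 log2 units with a wide interval (95% interval -1.35 to 0.66; edgeR adjusted p = 0.597), so for Il10 a difference of the ApoA-I effect with and without LPS was not shown, and differences within that interval remain possible. The CPM rise with LPS was 7.39 without and 2.32 with ApoA-I, 31.3% as large. As for Tnf, an equal fold effect of ApoA-I also changes this rise, so it does not show an interaction.

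**Figure D2:**
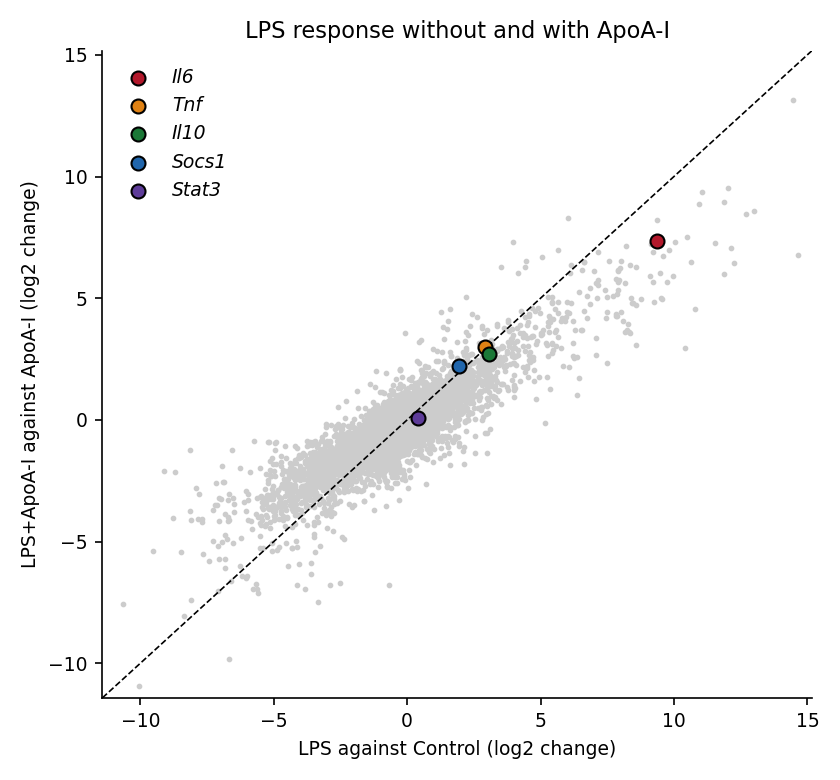
The log2 change with LPS in the absence of ApoA-I (horizontal axis, LPS against Control) and in its presence (vertical axis, LPS+ApoA-I against ApoA-I) for 11902 tested genes (grey) and the 5 genes described (coloured); the 2 comparisons share no libraries. The dashed line marks equal responses. Il6 lies below it at 9.35 and 7.36, Tnf lies on it at 2.93 and 2.97, and Socs1 lies just above it at 1.95 and 2.20.

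Socs1 encodes an inhibitor of Janus kinases that also restrains Toll-like receptor and interferon signalling. Control libraries held 4.87, 3.58, 2.92 and 3.58 CPM, from 53 to 77 counts. LPS libraries held 11.4, 14.8, 15.7 and 15.6 CPM. All were above Control, and the fold was 3.87 (95% interval 3.01 to 4.96; log2 change 1.95, SE 0.17, edgeR adjusted p = 9.1e-10). With LPS and ApoA-I the libraries stood close together at 25.6, 25.2, 24.1 and 26.4 CPM, all above the highest LPS library. Socs1 thereby rose a further 1.76-fold (95% interval 1.42 to 2.17; log2 change 0.81, SE 0.15, edgeR adjusted p = 7.18e-05). Against Control the combined treatment gave 6.79-fold (95% interval 5.35 to 8.62; log2 change 2.76, SE 0.17, edgeR adjusted p = 1.42e-12).

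ApoA-I without LPS gave Socs1 levels of 7.04, 5.67, 5.92 and 3.31 CPM. Here 3 libraries lay above all Control libraries, and ApoA-I 4 lay among them. The difference was 0.56 log2 units (95% interval 0.17 to 0.95; edgeR adjusted p = 0.0921). Without ApoA-I 4 it was 0.74 log2 units with an adjusted p of 0.00813, and the adjusted p ranged from 0.00813 to 0.334 over 24 alternatives. The interaction was 0.25 log2 units (95% interval -0.25 to 0.75; edgeR adjusted p = 0.428), which did not show that the effect of ApoA-I on Socs1 depends on LPS. The CPM rise with LPS was 10.6 without and 19.8 with ApoA-I, 187% as large. Here too an equal fold effect of ApoA-I changes the rise, so it does not show an interaction.

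Stat3 encodes the transcription factor that carries signals of interleukin 6 and interleukin 10 to the nucleus; RNA does not report its phosphorylation. Its level differed little between groups. Control libraries held 158, 144, 149 and 177 CPM, and ApoA-I libraries 204, 203, 195 and 180 CPM. LPS libraries held 211, 217, 203 and 209 CPM, and LPS+ApoA-I libraries 207, 214, 209 and 197 CPM. In CPM every treated library was above the highest Control library, and the treated groups lay close together. In TPM the LPS libraries (56.35 to 64.42) all lay below the highest Control library (67.15). The LPS+ApoA-I libraries (62.51 to 67.79 TPM) overlapped Control, and only the ApoA-I libraries (72.17 to 88.32 TPM) lay above it.

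Stat3 was the gene of the 5 called in ApoA-I against Control, 1 of 5 against 4.27% of all genes (2.5% higher). The change was 1.25-fold (95% interval 1.15 to 1.36; log2 change 0.32, SE 0.06, edgeR adjusted p = 0.00305). It missed the threshold when only the 8 libraries compared were fitted (adjusted p = 0.0508) and passed in the other 23 alternatives, where the lowest adjusted p was 3.41e-06. With LPS present, ApoA-I left a difference of -0.02 log2 units (95% interval -0.14 to 0.10; edgeR adjusted p = 0.78). The interaction passed for Stat3 at -0.34 log2 units (95% interval -0.51 to -0.17; edgeR adjusted p = 0.00199). Il6 and Stat3 were thus 2 of 5 with an interaction, where 41% of all genes had one and 20.2% a negative one. In TMM-scaled CPM the Stat3 rise with LPS was 53.0 without and 11.0 with ApoA-I, 20.8% as large.

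The size of the LPS effect on Stat3 depended on the scaling. With TMM it was 0.42 log2 units (SE 0.06, edgeR adjusted p = 1.02e-06). With library totals it was 0.04 (adjusted p = 0.608), and on log2(TPM + 1) it was -0.003 with limma (adjusted p = 0.971, range 3.1e-13 to 0.971 over 24 alternatives). These scalings also moved the median of all genes, from -0.04 to -0.42 and -0.37. Relative to that median, Stat3 was higher by 0.46, 0.46 and 0.37 log2 units. TMM and library totals differ by a factor per library, so subtracting the median makes them agree nearly by construction. Their agreement is no support for a rise, and which scaling is right was not tested. In LPS+ApoA-I against ApoA-I, 4 of 5 genes were higher, against 34.5% of all genes and 69.3% called in either direction. Stat3 was the exception there at 0.08 log2 units with TMM (95% interval -0.04 to 0.20; edgeR adjusted p = 0.229). It was called lower at -0.21 with library totals and -0.27 on log2(TPM + 1) (adjusted p = 0.00828 and 0.00215, range 0.00215 to 0.562 over 24 alternatives), where the medians of all genes were -0.30 and -0.30. In LPS+ApoA-I against Control, 5 of 5 were higher with TMM, against 34.4% of all genes and 69.6% in either direction. Stat3 had 0.40 log2 units there (SE 0.06, edgeR adjusted p = 2.45e-06) and 0.12 on log2(TPM + 1) (limma adjusted p = 0.147, range 4.56e-11 to 0.147 over 24 alternatives). Directions of the other 4 genes were the same in all 5 comparisons of groups under these scalings.

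**Figure D3:**
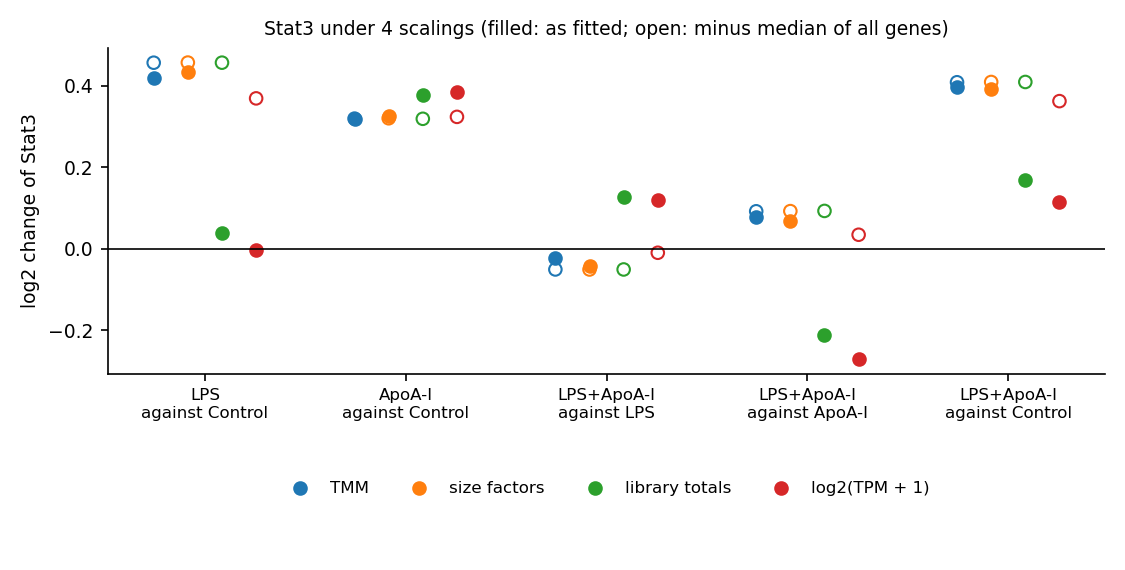
Log2 change of Stat3 in 5 comparisons under 4 scalings, TMM, size factors of the DESeq2 type, library totals and log2(TPM + 1). Filled points are the fitted change and open points are the change minus the median of all tested genes. In LPS against Control the filled points run from -0.003 to 0.43 and the open points from 0.37 to 0.46. TMM, size factors and library totals differ by a factor per library, so their open points agree nearly by construction.

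**Figure D4:**
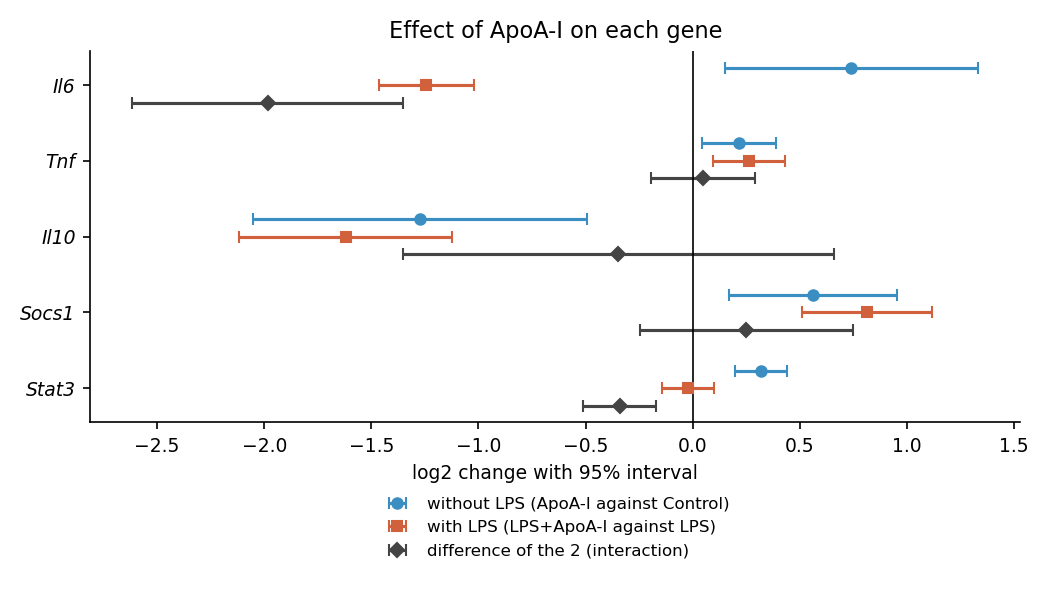
Effect of ApoA-I on each gene as a log2 change with its 95% interval, without LPS (circles), with LPS (squares) and the difference of both (diamonds, interaction). The interval of the difference lies below 0 for Il6, at -2.62 to -1.35, and for Stat3, at -0.51 to -0.17, and spans 0 for Tnf, Il10 and Socs1.

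Levels of different genes were compared per length, in TPM. In Control the order was Tnf (mean 198 TPM), Stat3 (60.6), Socs1 (5.86), Il6 (3.08) and Il10 (1.65). The ranges of Il6 and Il10 overlapped there, from 1.47 to 3.98 and from 0.85 to 2.47 TPM, while the other neighbours did not overlap. In LPS libraries Il6 came first at 1395 ± 58.3 TPM, then Tnf at 1123 ± 83.7, Stat3 at 60.4 ± 3.40, Socs1 at 16.7 ± 2.71 and Il10 at 10.1 ± 1.87 TPM (SD, n = 4 each). No neighbours overlapped. With LPS and ApoA-I, Tnf at 1481 ± 59.4 TPM stood above Il6 at 637 ± 61.4, and then came Stat3 at 65.6 ± 2.33, Socs1 at 32.3 ± 1.08 and Il10 at 3.60 ± 0.523 TPM (SD, n = 4 each). Neighbours again did not overlap. In ApoA-I libraries the order was that of Control, with Tnf at 243 TPM, Stat3 at 79.5, Socs1 at 9.06, Il6 at 5.10 and Il10 at 0.688. There Socs1 (5.43 to 12.2 TPM) and Il6 (3.26 to 8.50 TPM) overlapped.

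The ratios between these genes were taken in each library as a description, with no test. The share of gene pairs whose ratio separates the groups without overlap was not computed. Il6 to Tnf was 1.29, 1.35, 1.31 and 1.05 in LPS libraries and 0.427, 0.476, 0.403 and 0.413 in LPS+ApoA-I libraries. The groups did not overlap, and Il6 exceeded Tnf in every library with LPS alone. Without LPS the ratio was 0.0087 to 0.0183 in Control and 0.0109 to 0.0362 in ApoA-I libraries, so Il6 was a small fraction of Tnf in resting cells.

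The ratio of Tnf to Il10, an inflammatory against a dampening cytokine, separated the libraries by ApoA-I. It was 94.5, 84.1, 199 and 178 in Control and 101, 87.2, 124 and 148 in LPS libraries. It was 509, 230, 339 and 445 in ApoA-I and 399, 403, 360 and 514 in LPS+ApoA-I libraries. Every library with ApoA-I was above every library without it, and Control and LPS ranges overlapped. In resting cells this rests on 4 to 22 Il10 counts per library, and neither Tnf nor Il10 was called in ApoA-I against Control. With LPS it repeats the changes of Tnf and Il10 given above. For Il6 to Il10, LPS gave 117 to 163 and LPS+ApoA-I 145 to 212, which overlap; both genes were lower with ApoA-I there. Without LPS that ratio was 1.40 to 3.09 in Control and 5.53 to 9.28 in ApoA-I libraries, with every ApoA-I library higher, again from few counts.

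Socs1 to Stat3 was 0.0795 to 0.124 for Control and 0.0752 to 0.138 for ApoA-I libraries. It was 0.219 to 0.313 for LPS and 0.462 to 0.539 for LPS+ApoA-I libraries. Control and ApoA-I overlapped, and each step from there to LPS and to LPS+ApoA-I was free of overlap. A ratio within a library does not depend on how libraries are scaled, so it is not affected by the choice that moved Stat3.

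**Figure D5:**
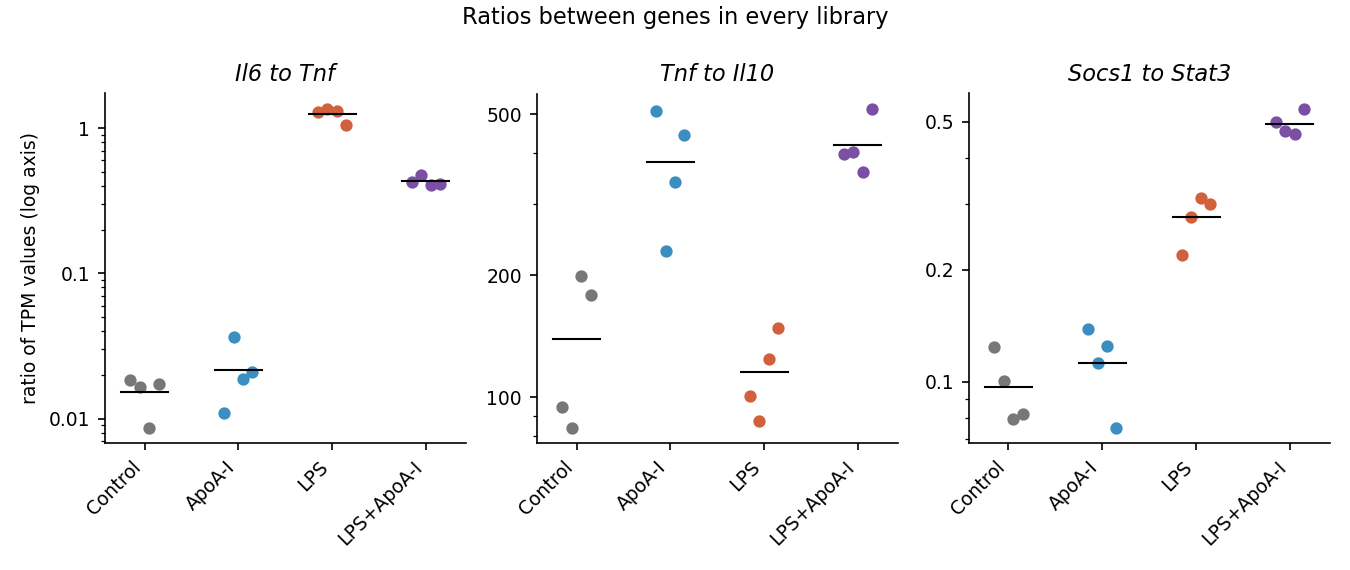
Ratios of TPM values in each library on a log axis, Il6 to Tnf, Tnf to Il10 and Socs1 to Stat3, by group. Points are libraries and the line is the group mean (n = 4). Il6 to Tnf falls from 1.25 on average with LPS to 0.430 with LPS+ApoA-I. Tnf to Il10 lies at 230 or above in every library with ApoA-I and at 199 or below in the others. Without LPS the latter ratio rests on 4 to 22 Il10 counts per library. The share of gene pairs with such a separation was not computed.

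The tested gene whose log2 CPM followed Il6 most closely over the 16 libraries was ENSRNOG00000046254 (Pearson's r = 0.998). Control libraries had 2879 ± 220 CPM of it, ApoA-I libraries 3016 ± 163, LPS libraries 7594 ± 125 and LPS+ApoA-I libraries 6960 ± 115 (SD, n = 4 each), the same order of groups over a much narrower range. For Tnf it was ENSRNOG00000013961 (Pearson's r = 0.998), with 187 ± 12.7, 198 ± 11.1, 435 ± 13.1 and 465 ± 10.2 CPM in the same order of groups (SD, n = 4 each). Libraries with and without LPS form separate clusters, so r can be high for a gene that only separates these clusters in the same direction. It exceeded 0.9 for 1736 genes with Il6 and 1545 with Tnf.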

How the data were processed

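Per the labels, total RNA was purified on columns and a company prepared the libraries. The authors deposited estimated counts per gene (expected counts, not normalized) and TPM values per gene, with 1 column per library and no pooling. RSEM 1.3.1, STAR 2.7.10b and cutadapt 1.8.1 appear in the submitters' processing notes, with no role or order. They name the mouse build mm10, while the identifiers are rat Ensembl identifiers; which rat annotation was used is not stated.

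Expected counts (3.24% not whole, tolerance 0.005) were rounded. Genes were kept by filterByExpr (minimum count 10), leaving 11902. A model with a mean per group was fitted to all 16 libraries after TMM scaling, by the quasi-likelihood test of edgeR 4.0.16 (R 4.3.3), with Benjamini-Hochberg adjustment over all tested genes and a threshold of 0.05. SE is the absolute log2 change divided by the root of F, and 95% intervals use the t distribution with the test's degrees of freedom. The interaction is the effect of ApoA-I with LPS minus that without. TPM values, as deposited, served for levels between genes. The test was tried on simulated counts. For LPS+ApoA-I against LPS (11772 genes), it recovered 91% of changes of 1 log2 unit and 100% of changes of 2. There were 15 false calls. For ApoA-I against Control (11765 genes) it recovered 97% at either size, with 18 false calls. In both, false calls were a larger share of the calls than the threshold of 0.05. For LPS against Control it recovered 93% and 99%, with 2 false calls. Only 100 genes were changed at each size, as many up as down. This does not cover a comparison where 51.4% of genes were called, nor changes as small as those of Tnf and Stat3.

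The genes and lists were chosen with earlier results of these data known. All 5 members are named whatever their values, and the most alike gene was named for Il6 and Tnf. The planned lists of pathway and marker genes were not used, because the RefSeq table (GRCr8) has an Ensembl identifier for 0 of 47357 genes. RefSeq promoters were matched by symbol for Il6, Tnf, Stat3 and Socs1. Within groups, counts of 2 libraries differed beyond sampling error in each of 24 pairs (chi-square of 3.07 to 89.8 for each degree of freedom). The highest values were those of LPS 4 with LPS 1, 2 and 3 (89.8, 75.5 and 73.2). LPS 1, 2 and 3 gave 3.88 to 5.05 among themselves. LPS 4 had the lowest Il6 and Il10 and the highest Tnf CPM of its group, nearest to LPS+ApoA-I. For Socs1 LPS 3 was nearest. The TMM factor of LPS 4 was 0.916, against 0.812 to 0.828 in LPS 1 to 3 and 0.912 to 0.953 in LPS+ApoA-I. In LPS+ApoA-I against LPS, 4 of the 5 genes were called whichever library was left out. ApoA-I 2 also stood apart from ApoA-I 1, 3 and 4 (65.2, 51.6 and 68.6). Counting error apart, the number of libraries limits precision. Alternatives were DESeq2 1.42.0, other size factors, library totals, no filter, only the libraries compared, limma 3.58.1 on log2(TPM + 1) and log2(TPM + 0.1), a replicate block and leaving out each library.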

Additional observations from a re-analysis of the deposited data

Results flagged for a closer look

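For Il6 the change with ApoA-I differed between LPS-treated and untreated cells, by -1.98 log2 units in the interaction test (adjusted p = 1.89e-05 in edgeR, and 2.26e-08 to 0.000855 over 23 alternatives). ApoA-I lowered Il6 in 4 of 4 libraries with LPS to below every LPS library. Without LPS its libraries overlapped Control.

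For Stat3 the same difference was -0.34 log2 units (edgeR adjusted p = 0.00199, and 4.76e-05 to 0.0432 over 23 alternatives). ApoA-I libraries without LPS all lay above Control, and the groups with LPS overlapped.

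In the LPS+ApoA-I group the library LPS+ApoA-I 4 had 2.14 CPM of Il10, away from the other 3 at 2.85 to 2.98 CPM, a gap that is large for the range of the group. It rests on 31 counts, against 36 to 44 in the others. It was 1 of 20 groups of 4 libraries examined, and chance gives about 1 in 20. Without it the log2 change of Il10 against LPS was -1.52 (adjusted p = 7e-05, range 9.03e-10 to 0.000236 over 24 alternatives).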

How the results depend on the processing

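Of 713 recomputed log2 changes of the 5 genes, 690 kept their direction and their side of the threshold. Some of them left out a library outside the comparison, which can hardly move the log2 change. In ApoA-I against Control, 1 of the 5 genes was called, against 2 with DESeq2 (Stat3 and Socs1), 0 when only the libraries compared were fitted, 2 on log2(TPM + 0.1), and 1 to 3 with each library left out in turn (3 without Control 4; 2 without Control 3, ApoA-I 2 or ApoA-I 4). Over all genes that comparison had 508 calls, against 820 with DESeq2, 94 with only the libraries compared, 310 on log2(TPM + 1), 238 on log2(TPM + 0.1) and 186 to 775 with a library left out (leaving out Control 1 gave 284, Control 2 gave 325, Control 3 gave 202, Control 4 gave 775 and ApoA-I 1 gave 186). The counts of members and of all genes in the other 5 comparisons stayed within 1.5 times.

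Stat3 changed sign on the TPM scale in LPS against Control (-0.00304 with a pseudocount of 1, -0.00305 with 0.1). It did so in LPS+ApoA-I against LPS with library totals (0.13), on log2(TPM + 1) (0.12) and log2(TPM + 0.1) (0.12) and without LPS+ApoA-I 4 (with single libraries left out, -0.038 to 0.0023), never with a call. In LPS+ApoA-I against ApoA-I it was -0.21 with library totals, -0.27 on log2(TPM + 1) and -0.27 on log2(TPM + 0.1), each called. These scalings move the median of all genes as well. The Tnf interaction ran from -0.041 to 0.13 with single libraries left out, below 0 without Control 4 or ApoA-I 4 and never called. Il10 in ApoA-I against Control fell under the filter when only the 8 libraries compared were fitted, and DESeq2 gave it no adjusted p. With CPM, which is not per length, the mean ratio of Il6 to Tnf with LPS was 0.834 in place of 1.25.

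Pairing by replicate number was not seen: deviations of same-numbered libraries correlated above 0.1 in 2 of 24 pairs, and 5 of 16 libraries were closest to their own number. With so few libraries per group this check cannot exclude a shared culture. With the replicate block, 2 of the 5 genes were called in ApoA-I against Control (Il10 with adjusted p = 0.0418, in place of 0.0575) and 469 over all genes. Of all calls, the share that was higher moved with library totals to 25.5% from 48.6% in LPS against Control, to 83.1% from 58.5% in ApoA-I against Control, to 71.8% from 51.4% in LPS+ApoA-I against LPS, to 26.7% from 49.8% in LPS+ApoA-I against ApoA-I, to 31.2% from 49.4% in LPS+ApoA-I against Control and to 65.1% from 50.7% in the interaction. Low counts of Il10 (4 to 22 per library without LPS) limit what can be said of it in resting cells.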
